A study of Rattus norvegicus with 11 samples.

Results

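The retinoic acid pathway was followed in rat heart through 4 genes: Aldh1a1 (ENSRNOG00000017619), Rara (ENSRNOG00000009972), Rarb (ENSRNOG00000024061) and Rxra (ENSRNOG00000009446). They were taken by Ensembl ID from a table of 32883 rat gene IDs, and all 4 were among the 14979 genes with enough counts to be tested. The deposited table lists IDs without symbols and 0 of its IDs could be paired with a symbol in the annotation table used here, so the 4 symbols are those under which the IDs are known in Ensembl's rat annotation and were not checked against a table. The title of the series names the retinol metabolism pathway as the route by which canagliflozin with aerobic exercise acts in heart failure, which is why these genes were examined.

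Retinol, the circulating form of vitamin A, is oxidised in cells to retinaldehyde and then to retinoic acid. Retinaldehyde dehydrogenases of the Aldh1a family carry out the second, irreversible step. Retinoic acid binds the nuclear receptors RARalpha and RARbeta (genes Rara and Rarb), which sit on DNA as dimers with a retinoid X receptor such as RXRalpha (gene Rxra). RXRalpha is also the partner of the PPAR, thyroid hormone and vitamin D receptors, and is needed for ventricular development. Rarb is both a receptor and a textbook target of retinoic acid, because its promoter holds a retinoic acid response element.

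Counts from RNA sequencing of Sprague Dawley rat hearts were available for 11 libraries. Control hearts gave 2 of them, numbered 95 and 115. Isoproterenol libraries 79, 98 and 119 (n = 3) came from rats given a 10-day course of this beta-adrenergic agonist at 5 mg/kg daily, a model of heart failure. Canagliflozin libraries 78, 133 and 143 (n = 3) came from rats with the same course that also received 3 mg/kg daily of canagliflozin, which blocks glucose reabsorption in the kidney, over 4 weeks. Exercise libraries 57, 103 and 113 (n = 3) came from rats with the same isoproterenol course and daily exercise of 60 min over 4 weeks. The series title speaks of canagliflozin combined with exercise, but the labels of the exercise libraries do not name canagliflozin. The group is therefore called exercise, and its labels leave unclear whether canagliflozin was given too. The labels do not say which part of the heart was taken, or whether each library is a different animal, and p-values reflect only how these libraries vary. Marker genes of the heart could not be looked up without symbols, so the labelled tissue was not checked against them. In whole tissue, fewer cells of a type and less RNA per cell cannot be told apart.

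The promoter of Rarb is shown first because retinoid receptor dimers are known to bind a response element in it. Promoter windows of all 4 genes (250 bases before to 50 after the RefSeq transcription start, build GRCr8) were matched by symbol. They were searched on both strands for pairs of the half-sites GGTCA and GTTCA in direct repeat, in all 4 combinations. The spacers searched were NN, NNN and NNNNNN. Full half-sites hold 1 more base, which takes 1 N of each spacer. The motifs thus stand for the known retinoid repeats DR1, DR2 and DR5, spaced by 1, 2 and 5 bases. In the Rarb window (chr15:11336142-11336441, plus strand) the capitals mark the 1 match, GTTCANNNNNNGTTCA on the plus strand, from base 26 to base 41 after the start.

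Rarb: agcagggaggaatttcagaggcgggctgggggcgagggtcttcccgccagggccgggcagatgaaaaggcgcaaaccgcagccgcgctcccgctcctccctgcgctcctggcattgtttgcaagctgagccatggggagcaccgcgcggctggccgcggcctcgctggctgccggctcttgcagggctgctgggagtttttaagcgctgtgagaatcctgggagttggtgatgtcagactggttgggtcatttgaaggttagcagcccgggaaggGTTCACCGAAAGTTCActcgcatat

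This motif was present in 140 of 33469 rat promoter windows (0.418%), and any of the 12 motifs in 431 (1.29%). The windows of Aldh1a1, Rara and Rxra held none of the 12, which says only that these letters are not in these 300 bases. The windows also differed in base composition. Aldh1a1 had 48.3% G and C and a single CpG, and Rxra had 84.7% and 62 CpGs, against a median of 51.7% over all windows. Rara had 70.3% and 32 CpGs, and Rarb 63.0% and 21. In the windows of Aldh1a1 (chr1:227537370-227537669, plus strand) and Rxra (chr3:31387642-31387941, plus strand) capitals mark the CpGs.

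Aldh1a1: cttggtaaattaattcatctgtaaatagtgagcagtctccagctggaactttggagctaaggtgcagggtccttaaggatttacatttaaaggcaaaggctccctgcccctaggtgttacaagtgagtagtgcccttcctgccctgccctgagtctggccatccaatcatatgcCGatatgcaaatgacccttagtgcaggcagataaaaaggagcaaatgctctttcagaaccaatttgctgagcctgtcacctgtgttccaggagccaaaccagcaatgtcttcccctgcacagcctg

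Rxra: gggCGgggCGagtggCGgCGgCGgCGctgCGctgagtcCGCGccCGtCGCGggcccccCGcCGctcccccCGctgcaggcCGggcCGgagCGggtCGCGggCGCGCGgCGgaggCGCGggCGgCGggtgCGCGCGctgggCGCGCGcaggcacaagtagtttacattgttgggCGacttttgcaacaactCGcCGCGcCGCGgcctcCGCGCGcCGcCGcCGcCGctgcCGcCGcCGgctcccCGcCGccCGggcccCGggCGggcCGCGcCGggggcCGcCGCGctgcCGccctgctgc

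Total counts per library ran from 14742164 to 25034831. Control library 95 stood apart: it detected 14692 genes (others 16916 to 17703), 42.5% of its counts lay in its 10 most abundant genes against 22.6 to 34.3%, and its TMM scaling factor (trimmed mean of M-values, which corrects for such genes) was 0.568 against 0.910 to 1.23. Within the treated groups, libraries 98 (isoproterenol), 78 (canagliflozin) and 57 (exercise) lay farthest from the others of their own group over all tested genes. Each gene's log2 CPM was also set against its mean over libraries. The median for long genes (3852 bases or more) minus that for short genes (1479 or fewer) was -0.80 in library 95. It was 0.75 in canagliflozin library 143 and -0.25 to 0.35 in the others. Levels below are CPM, counts scaled to 1e6 per TMM-scaled library, unless FPKM is named.

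Aldh1a1, a member of the enzyme family that makes retinoic acid, was the most abundant of the 4 genes in CPM, with group means between 76.6 and 86.7 CPM. It was at 67.8 and 85.4 CPM in the control libraries 115 and 95. It was at 38.7, 87.1 and 110 CPM in the isoproterenol libraries 98, 119 and 79. The canagliflozin libraries 143, 78 and 133 were at 57.4, 69.6 and 113 CPM. The groups overlapped throughout, and the lowest and highest of the 11 values lay in libraries 98 and 103. The exercise libraries 57, 113 and 103 were at 53.0, 82.9 and 124 CPM. Group means were 76.6 ± 12.4 CPM (SD, n = 2) in control, 78.7 ± 36.6 (n = 3) with isoproterenol, 79.9 ± 29.0 (n = 3) with canagliflozin and 86.7 ± 35.7 (n = 3) with exercise. Neighbouring means in that order lay closer together than the SD of either group. The range within a treated group was 1.96-fold to 2.85-fold.

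Rara, the retinoic acid receptor found in most tissues, had its lowest mean in control. Its control libraries 95 and 115 were at 21.0 and 21.7 CPM. The isoproterenol libraries 79, 119 and 98 were at 20.8, 26.0 and 35.2 CPM, and the canagliflozin libraries 143, 133 and 78 at 21.3, 30.8 and 42.5 CPM. Libraries are listed here in order of value. The exercise libraries 103, 113 and 57 were at 23.7, 24.5 and 41.9 CPM, with library 57 well above the others. The means were 21.4 ± 0.502 CPM (SD, n = 2) in control, 27.3 ± 7.25 (n = 3) with isoproterenol, 30.0 ± 10.3 (n = 3) with exercise and 31.5 ± 10.6 (n = 3) with canagliflozin. The small spread of the controls depends on the TMM factor of library 95: without it the 2 libraries were at 11.9 and 22.4 CPM.

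Rarb, the receptor that retinoic acid induces, was the least variable of the 4 genes. Its control libraries 95 and 115 were at 15.8 and 21.8 CPM. The isoproterenol libraries 98, 119 and 79 were at 18.7, 21.1 and 28.3 CPM. The groups overlapped, with library 79 above all others. The canagliflozin libraries 78, 133 and 143 were at 15.8, 17.2 and 21.7 CPM, and the exercise libraries 57, 103 and 113 at 16.3, 18.6 and 22.3 CPM. The means were 18.2 ± 3.04 CPM (SD, n = 3) with canagliflozin, 18.8 ± 4.31 (n = 2) in control, 19.1 ± 2.99 (n = 3) with exercise and 22.7 ± 5.01 (n = 3) with isoproterenol. The standard deviation of its log2 CPM over the 11 libraries was 0.26, lower than in all but 9.77% of tested genes.

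Rxra, the shared dimer partner, was the most variable of the 4. It had 7 counts in control library 95 (95% exact Poisson interval 2.81 to 14.4 counts, counting error only) and 524 in control library 115, or 0.836 and 33.7 CPM. These values differ 40.3-fold, and 2.44% of tested genes were at least as much lower in library 95. The fold depends on the TMM factor of library 95: without TMM factors libraries 95 and 115 were at 0.475 and 34.7 CPM. The isoproterenol libraries 98, 79 and 119 were at 10.4, 22.5 and 28.6 CPM. The canagliflozin libraries 78, 143 and 133 were at 22.6, 28.9 and 31.5 CPM, the narrowest range of any group. The exercise libraries 57, 103 and 113 were at 9.78, 30.2 and 34.8 CPM. The means were 17.3 ± 23.2 CPM (SD, n = 2) in control, 20.5 ± 9.22 (n = 3) with isoproterenol, 24.9 ± 13.3 (n = 3) with exercise and 27.7 ± 4.59 (n = 3) with canagliflozin. Without library 95, control is the single value of 33.7 CPM, above every isoproterenol and canagliflozin library.

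**Figure D1:**
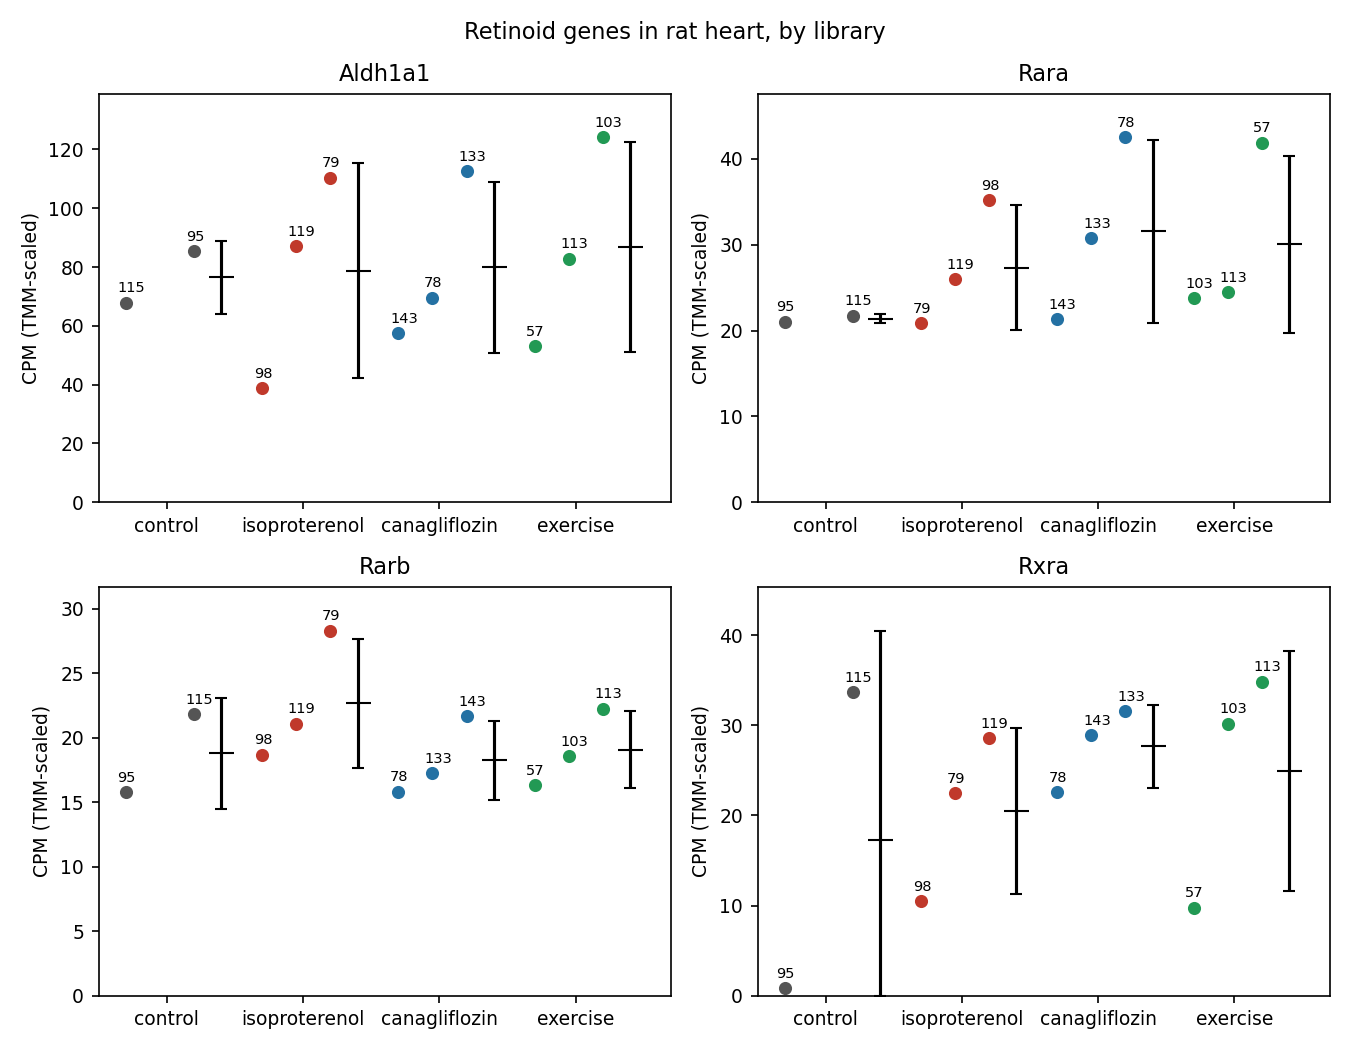
CPM in TMM-scaled library size (vertical axes, linear from 0) of Aldh1a1, Rara, Rarb and Rxra in each of the 11 libraries, ordered by value within the 4 groups and labelled with the library number, with bars for the mean ± SD (cut at 0 for control Rxra). Rxra ranges from 0.836 CPM in control library 95 to 34.8 CPM in exercise library 113, while Rarb stays between 15.8 and 28.3 CPM.

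Levels of different genes were compared per length, with FPKM (counts scaled by gene model length and library total) as deposited. Aldh1a1 ran from 20.7 to 60.3 FPKM with a median of 32.1, and was 0.891 to 3.67 times the summed FPKM of the 3 receptors. Among the receptors Rxra had the highest FPKM in 8 of 11 libraries, with a median of 14.6 against 6.94 for Rarb and 6.32 for Rara. The other 3 libraries were control 95, where Rarb led Rara narrowly (2.90 against 2.85 FPKM), and libraries 98 and 57, where Rara led. This order depends on the gene model lengths, worked out from counts and FPKM: 1985 bases for Rxra, 3092 for Rarb and 4184 for Rara. In CPM, Rarb was above Rxra in library 79 (28.3 against 22.5) and Rara in library 78 (42.5 against 22.6). Rxra made up 4.00% of the summed receptor FPKM in control library 95 and 58.1% in control library 115. Its mean share was 41.2 ± 13.2% (SD, n = 3) with isoproterenol, 50.8 ± 7.02% (n = 3) with canagliflozin and 46.1 ± 18.8% (n = 3) with exercise, and the shares of single libraries overlapped between these groups.

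**Figure D2:**
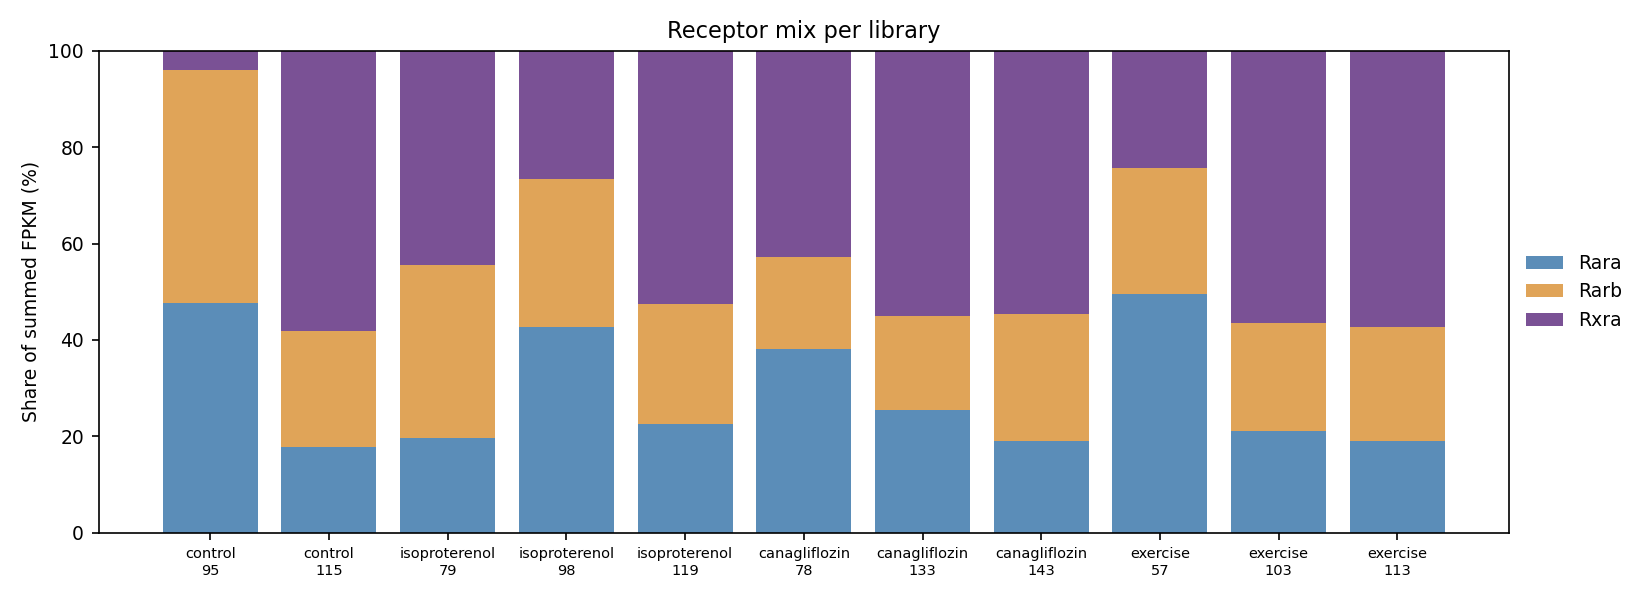
Share of the summed FPKM of Rara, Rarb and Rxra (vertical axis, percent) taken by each receptor, 1 stacked bar per library, ordered by group and labelled with group and library number. Rxra takes 4.00% in control library 95, 24.4% in exercise library 57 and 26.7% in isoproterenol library 98, and 42.7 to 58.1% in the other 8.

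The first comparison was isoproterenol against control, which asks what the heart failure model did to the pathway. None of the 4 genes differed beyond the spread between libraries. The edgeR log2 fold change was 0.04 for Aldh1a1 (SE 0.491, 95% interval -1.05 to 1.13, adjusted p = 0.991). It was 0.36 for Rara (SE 0.371, interval -0.47 to 1.18, adjusted p = 0.869) and 0.27 for Rarb (SE 0.288, interval -0.37 to 0.91, adjusted p = 0.873). The upper ends of these intervals are rises of 2.19-fold, 2.27-fold and 1.87-fold. For Rxra it was 0.23 (SE 0.992, interval -1.97 to 2.44, adjusted p = 0.973). Of all 14979 tested genes edgeR called 0 (0%) at an adjusted p under 0.05 and 780 (5.21%) had an unadjusted p under 0.05, DESeq2 called 2 (0.0134%) and limma-voom 0. None of the 4 genes was at an unadjusted edgeR p under 0.05 or called by limma-voom. DESeq2 did not call Aldh1a1 and gave no adjusted p for Rara, Rarb and Rxra, whose unadjusted p was 0.446, 0.474 and 0.821. Rara was at 0.13 without isoproterenol library 98, 0.08 with each library's trend over gene length as offset and 0.75 without TMM factors, where the median of all genes was 0.40. In the exact two-sided permutation test on log2 CPM, where 2 against 3 libraries cannot go below p = 0.1, p ran from 0.4 for Rara to 1 for Aldh1a1. For each gene the libraries of the 2 groups overlapped, where they were apart for 13.4% of all tested genes.

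The control library used decided the direction for Rxra. Without control library 95 its edgeR log2 fold change was -0.71 (SE 0.638, adjusted p = 1) for isoproterenol, -0.29 (SE 0.651, adjusted p = 0.976) for canagliflozin and -0.43 (SE 0.646, adjusted p = 1) for exercise, each against control. Without control library 115, so that library 95 is the lone control and its spread is taken from the other groups, the same values were 4.62 (edgeR adjusted p = 0.0160), 5.05 (adjusted p = 0.00880) and 4.90 (adjusted p = 0.0137). In that fit edgeR called 17.1%, 24.8% and 17.6% of all tested genes in the 3 comparisons, or 2688, 3900 and 2766 genes. Without libraries 57, 78, 95 and 98 the values were -0.40, -0.16 and -0.05. For isoproterenol against control Rxra was also at -0.08 without isoproterenol library 119, and Aldh1a1 at -0.28, -0.02 and -0.10 without libraries 79, 119 and 115. The comparisons share their control libraries.

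**Figure D3:**
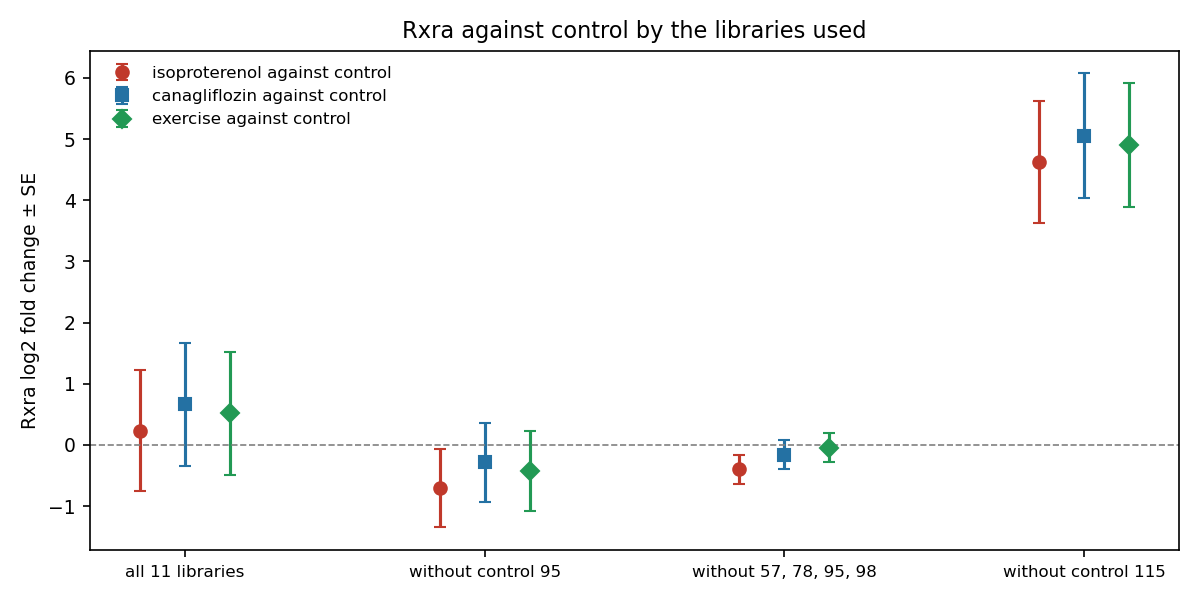
Log2 fold change of Rxra (vertical axis, ± SE) for isoproterenol, canagliflozin and exercise, each against control, with all 11 libraries and with the libraries named on the horizontal axis left out. The values lie between 0.23 and 0.67 with all libraries, between -0.71 and -0.29 without control library 95, and between 4.62 and 5.05 without control library 115.

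Canagliflozin was compared with isoproterenol alone to ask what the drug did after the same injury. Mean Aldh1a1 was 79.9 CPM after the drug and 78.7 CPM without it, and its fitted log2 fold change was 0.02 (SE 0.438, 95% interval -0.95 to 0.99, edgeR adjusted p = 0.999). Rarb, the target gene, had the smallest unadjusted p of the 4 genes, 0.244, with means of 18.2 CPM after the drug and 22.7 CPM without it. Its log2 fold change was -0.31 (SE 0.255, interval -0.88 to 0.25). Rara was at 0.21 (SE 0.328, interval -0.52 to 0.93) and Rxra at 0.43 (SE 0.880, interval -1.52 to 2.39). All 4 edgeR adjusted p-values were 0.999. The spread in this fit is estimated over all 11 libraries, control library 95 included, though control is not compared here. With only the 2 groups compared in the fit, Rxra was at 0.44 (SE 0.376, edgeR adjusted p = 0.979). The libraries of the 2 groups overlapped for each gene, where they were apart for 9.48% of all tested genes. Without isoproterenol library 79, the highest for Rarb, the Rarb value was -0.13. Signs depended on single libraries: Aldh1a1 was at -0.31 without isoproterenol library 98 and at -0.31 without canagliflozin library 133, and Rara at -0.07 without canagliflozin library 78. Over all genes edgeR called 0 (0%), with 495 (3.3%) at an unadjusted p under 0.05, DESeq2 called 2 and limma-voom 0.

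Exercise was compared with isoproterenol alone in the same way, and the fitted values had the same signs as for canagliflozin, with which this comparison shares the isoproterenol libraries. Aldh1a1 was at a log2 fold change of 0.14 (SE 0.438, 95% interval -0.83 to 1.11) and Rara at 0.14 (SE 0.328, interval -0.59 to 0.86). Rarb was at -0.25 (SE 0.255, interval -0.82 to 0.31) and Rxra at 0.28 (SE 0.880, interval -1.67 to 2.24). The edgeR adjusted p was 1 for all 4 genes, and the libraries of the 2 groups overlapped for each (apart for 8.61% of tested genes). With only these 2 groups in the fit, so without control library 95, Rxra was at 0.28 with an SE of 0.520. Rarb was at -0.05 without isoproterenol library 79 and -0.15 without exercise library 57. Without isoproterenol library 98 the sign turned for Aldh1a1 (-0.19) and Rxra (-0.03). It also turned for Aldh1a1 without exercise library 103 (-0.21), for Rxra without exercise library 113 (-0.04), and for Rara without exercise library 57 (-0.18) or isoproterenol library 79 (-0.0061). Over all genes edgeR called 0 (0%), with 222 (1.48%) at an unadjusted p under 0.05, and DESeq2 and limma-voom 0 each.

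The exercise and canagliflozin groups were set against each other directly. The log2 fold changes were 0.12 for Aldh1a1 (SE 0.438), -0.07 for Rara (SE 0.327), 0.06 for Rarb (SE 0.255) and -0.15 for Rxra (SE 0.878), with an edgeR adjusted p of 0.999 for each. The 95% interval for Rarb was the narrowest, -0.50 to 0.63, and that for Rxra the widest, -2.10 to 1.8. With only these groups in the fit, so without control library 95, the SE was 0.425 for Rxra and 0.370 for Aldh1a1. The libraries overlapped for each gene and were apart for 14.5% of tested genes. The sign of all 4 values turned when 1 library was left out. Aldh1a1 was at -0.07 without library 143 and -0.23 without 103, and Rxra at 0.23 without 57. Rara was at 0.20, 0.07 and 0.06 without libraries 78, 103 and 113, and Rarb at -0.03 and -0.06 without 78 and 113. A joint test of any difference among the 3 isoproterenol-treated groups gave an unadjusted p of 0.448 for Rarb, 0.820 for Rara, 0.885 for Rxra and 0.943 for Aldh1a1, with edgeR adjusted p-values of 1. Over all genes edgeR called 0 (0%) in the direct comparison, with 363 (2.42%) at an unadjusted p under 0.05, DESeq2 called 1 (0.00668%) and limma-voom 0. The joint test called 0 with each of the 3 tools, with 284 (1.9%) at an unadjusted edgeR p under 0.05.

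Both treated groups were also set against control. Rara had the largest fitted differences relative to their error, with a log2 fold change of 0.56 (SE 0.374, 95% interval -0.27 to 1.39, edgeR adjusted p = 0.468) for canagliflozin and 0.49 (SE 0.373, interval -0.34 to 1.32, adjusted p = 0.872) for exercise. For exercise all 3 Rara libraries lay above both controls, the only 1 of the 24 pairings of gene and comparison without overlap, where 17.4% of tested genes were apart in that comparison and 26.3% for canagliflozin against control. The exact permutation p of this pairing was 0.3. These Rara values moved with single libraries and with the scaling. For canagliflozin Rara was at 0.29 without library 78, 0.20 with the length offset and 1.0001 without TMM factors (edgeR adjusted p = 0.41, median of all genes 0.54). The unadjusted p of that last edgeR value was 0.0419. For exercise it was at 0.17 without library 57, 0.27 with the length offset and 0.84 without TMM factors (median of all genes 0.40). Rarb was at -0.05 (SE 0.285) for canagliflozin and 0.02 (SE 0.286) for exercise, and Aldh1a1 at 0.06 (SE 0.491) and 0.18 (SE 0.492). Rxra was at 0.67 (SE 1.004) and 0.52 (SE 0.999), and with limma-voom at 1.83 and 1.49 (1.28 for isoproterenol), with no call. None of these passed the test. For canagliflozin, Aldh1a1 was at -0.27 without library 133 and -0.08 without control library 115, and Rarb at 0.05 without library 78 and 0.23 without control library 115. For exercise, Aldh1a1 was at -0.17 without library 103, and Rarb at -0.11 without library 113 and -0.18 without control library 95. Over all genes edgeR called 0 (0%) in both, with 2162 (14.4%) and 727 (4.85%) at an unadjusted p under 0.05, and DESeq2 called 240 (1.6%) and 11 (0.0734%). None of the 4 was called for canagliflozin; for exercise DESeq2 gave no adjusted p for Rara, Rarb and Rxra (unadjusted p 0.255, 0.969 and 0.605) and did not call Aldh1a1.

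**Figure D4:**
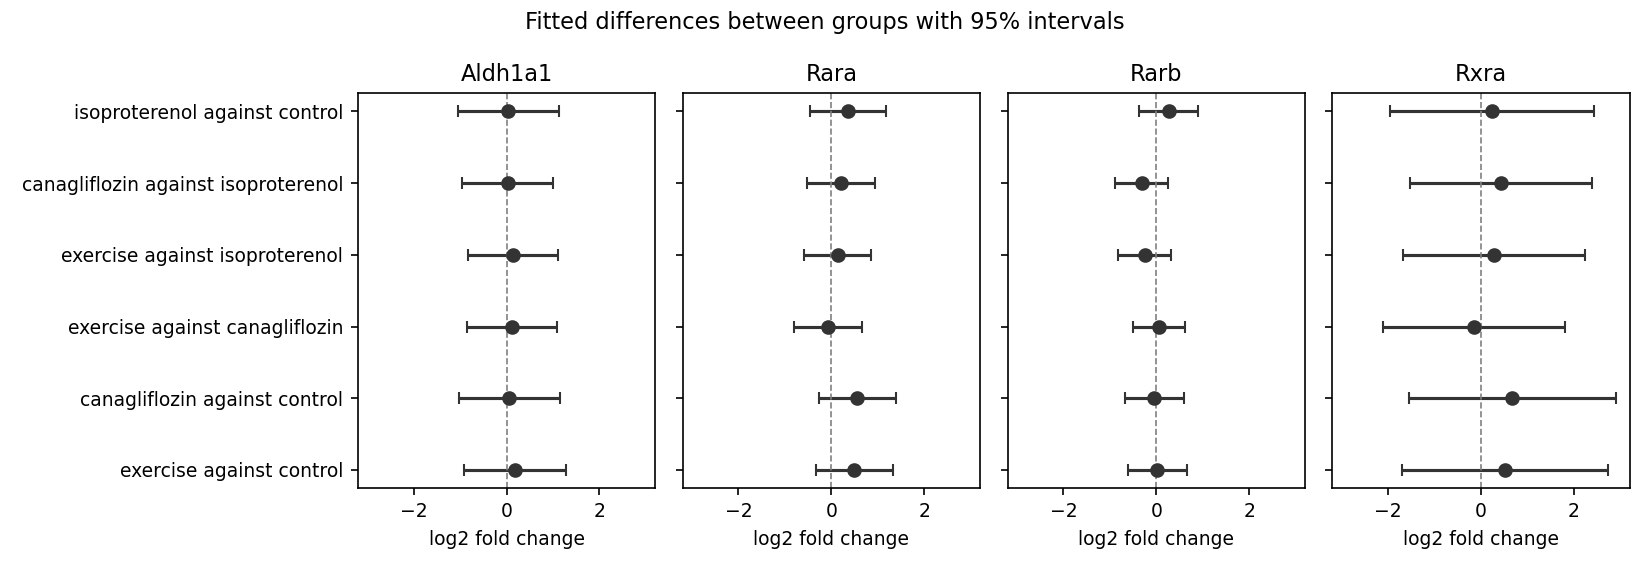
Fitted log2 fold changes (horizontal axes, first group named against the second) with 95% intervals for the 4 genes in the 6 comparisons, from the edgeR fit to all 11 libraries. Every interval includes 0. In this fit, which includes control library 95, those of Rarb are the narrowest and those of Rxra the widest. For canagliflozin against isoproterenol with only those groups in the fit, the SE was 0.376 for Rxra and 0.439 for Aldh1a1.

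Libraries of a treated group mostly differed more than the group means did. In control this was not so for Rara, with a range of 1.03-fold against a largest fitted difference of 1.48-fold. For each gene the range within every treated group was larger than its largest fitted difference between groups, except for Rxra within the canagliflozin group. In each treated group the library that lay farthest from the others over all genes had the highest Rara and the lowest Rarb and Rxra. For Rara these libraries were 1.50, 1.63 and 1.74 times the mean of the other 2 in the isoproterenol, canagliflozin and exercise groups. For Rxra the ratios were 0.409, 0.748 and 0.301, and for Rarb 0.756, 0.814 and 0.800. The lower Rxra beside a higher Rara was thus found in libraries of groups with different treatment. Aldh1a1 was lowest in 2 of these 3 libraries, with ratios of 0.392 in library 98, 0.818 in library 78 and 0.512 in library 57. A library of this kind was highest in all 3 groups for 15.3% of tested genes and lowest in all 3 for 19.2%, so many genes had such patterns. Whether RNA quality, the piece of heart taken or the animal had a part in them was not tested.

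**Figure D5:**
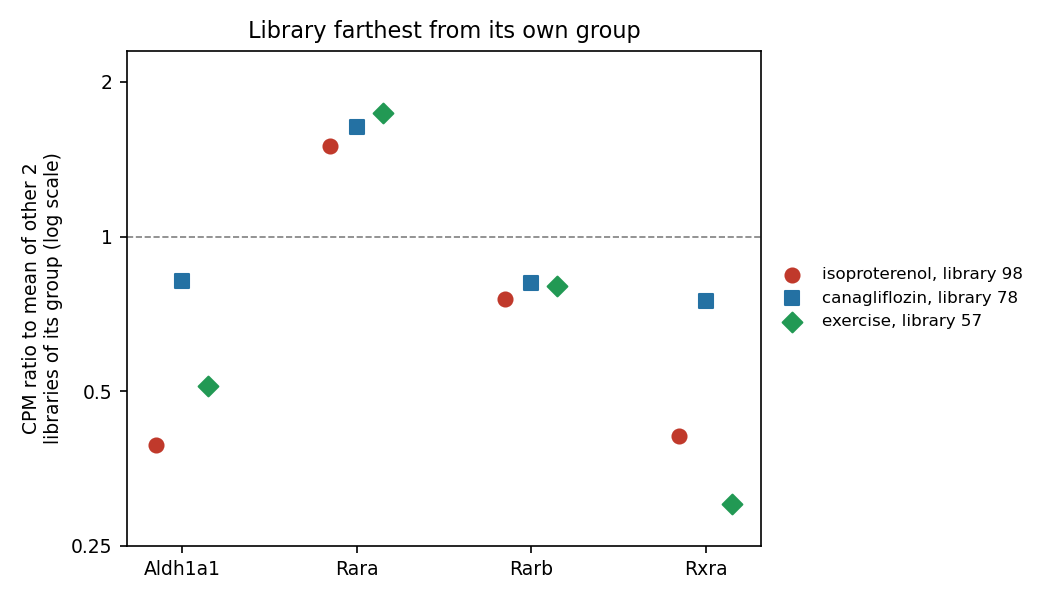
CPM of each gene in the library farthest from its own group, divided by the mean of the other 2 libraries of that group (vertical axis, log scale; dashed line at 1), for libraries 98, 78 and 57. Rara lies at 1.50 to 1.74 in all 3, Rarb at 0.756 to 0.814, and Rxra at 0.301 to 0.748.

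Likeness between the 4 genes over libraries differed by pair. Over the 10 libraries without control 95, Spearman's rho of log2 CPM was -0.83 between Rara and Rarb, -0.38 between Rara and Rxra and 0.36 between Rarb and Rxra. With all 11 libraries these were -0.46, -0.06 and 0.52. Over the 10 libraries Aldh1a1 had a rho of 0.09 with Rarb, 0.44 with Rxra and -0.31 with Rara, and over all 11 of 0.03, 0.29 and -0.34. These are descriptions over libraries that share a scaling and differ in depth. Rxra was higher where more genes were detected (rho 0.56 over 11 libraries, 0.42 without control 95). It was lower where the 10 most abundant genes held more of the counts (rho -0.64 and -0.52). The part of either in its spread was not tested.

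The tested genes whose pattern over the 11 libraries was most like each of the 4 were found by Spearman's rho of log2 CPM. For Rxra it was ENSRNOG00000013826 (rho 0.99), and 78 genes of 14978 reached 0.9. For Rarb it was ENSRNOG00000004686 (rho 0.95), with 23 genes at 0.9 or above, and for Rara ENSRNOG00000003232 (rho 0.96), with 10. Aldh1a1 had a single gene at that level, ENSRNOG00000043370 (rho 0.94). ENSRNOG00000013826, ENSRNOG00000004686 and ENSRNOG00000043370 were also first or tied for first without control library 95, and the nearest to Rara then was another gene. Names of these IDs are not given in the files.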

How the data were processed

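RNA of rat hearts was sequenced in 11 libraries. Per the submitters' processing notes, CASAVA 1.8 and TopHat2 2.0.6 were used. Genome build, annotation, counting tool and strand setting: not given in the sources used here. The authors deposited 1 table with raw counts and FPKM (scaled by gene model length and library total) for each library, per the file headers. Total counts ran from 14742164 to 25034831. Libraries were matched to columns by library number and to groups by their labels. No 2 libraries of a group agreed within sampling noise (chi-square per degree of freedom 25.3 to 311).

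edgeR 4.0.16 (R 4.3.3) was run on the deposited counts with TMM factors. Genes were kept by filterByExpr (14979 of 32883). A robust quasi-likelihood model was fitted to all 11 libraries with 4 group means, and Benjamini-Hochberg adjustment ran over all tested genes. Calls were made at an adjusted p under 0.05. Standard errors come from the quasi-likelihood F. The 95% intervals use them with the total degrees of freedom of the fit, prior plus residual (10.24 or 10.34 for the 4 genes). Log2 CPM used a prior count of 2. Exact permutation tests were two-sided. This fit was first run on simulated counts. They had a small spread set equal for all genes and no library set apart, unlike these data, so that run does not show how the fit performs here. DESeq2 1.42.0, limma-voom (limma 3.58.1), other scalings and filters, a length offset and left-out libraries were alternatives.

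The 4 genes were always named, and for likeness the genes with the highest Spearman correlation. The members and lists were chosen with earlier results of these data known. Lists of other retinoid genes and of cell type markers could not be applied, since 0 of the IDs matched a symbol, and were not analysed here. Figures were drawn with matplotlib 3.10.9.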

Additional observations from a re-analysis of the deposited data

How the results depend on the processing

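Each of the 11 libraries was left out in turn. Of the 132 log2 fold changes of the 4 genes this gave, 31 changed sign and 3 became calls (Rxra against control without control library 115). Without a replicate, the lowest and highest log2 fold changes of genes whose sign or call changed were, for isoproterenol against control, Aldh1a1 -0.28 to 0.37, Rxra -0.71 to 4.62; for canagliflozin against isoproterenol, Aldh1a1 -0.31 to 0.34, Rara -0.0687 to 0.43. They were, for exercise against isoproterenol, Aldh1a1 -0.21 to 0.47, Rara -0.18 to 0.36, Rxra -0.0384 to 0.66; for exercise against canagliflozin, Aldh1a1 -0.23 to 0.45, Rara -0.39 to 0.20, Rarb -0.0638 to 0.21, Rxra -0.47 to 0.23. They were, for canagliflozin against control, Aldh1a1 -0.27 to 0.25, Rarb -0.26 to 0.23, Rxra -0.29 to 5.05; for exercise against control, Aldh1a1 -0.17 to 0.43, Rarb -0.18 to 0.29, Rxra -0.43 to 4.90.

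Of 246 log2 fold changes from the other settings, 24 changed sign and none became a call. DESeq2 gave no adjusted p for 6 of them. The direction was the same in each of these fits, and in those without 1 library, for Rara in the 3 comparisons with control. This also held for Rarb in isoproterenol against control and either treatment against isoproterenol, and for Rxra in canagliflozin against isoproterenol. These comparisons share control or isoproterenol libraries, and the sizes changed. Without isoproterenol library 79, Rarb was at -0.13 for canagliflozin and -0.05 for exercise, each against isoproterenol. For Rarb, exercise against control was -0.0092 with RLE factors, -0.0123 with DESeq2, -0.0081 with limma-voom and -0.20 with each library's trend over gene length as offset, and canagliflozin against control was 0.0023 with upper-quartile factors and 0.001 in genes with at least 10 counts in every library, a filter that left Rxra out. With limma-voom Aldh1a1 was at -0.0787 for isoproterenol and -0.0175 for canagliflozin against control. With the length offset Aldh1a1 was at -0.16, -0.12 and -0.037 for isoproterenol, canagliflozin and exercise against control, and Rara at 0.0691 for exercise against canagliflozin. The cause was not tested.

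Other fits were chosen after seeing the data. With library totals and no TMM factor, the median of all genes for isoproterenol against control went from 0.07 to 0.40, and Rarb was at -0.0487 for exercise against canagliflozin and 0.39 for canagliflozin against control, below the median of all genes there, 0.54. Without libraries 57, 78, 95 and 98, Rxra was at -0.40, -0.16 and -0.0476 for isoproterenol, canagliflozin and exercise against control and 0.11 for exercise against canagliflozin, Aldh1a1 at -0.23 for canagliflozin against isoproterenol, and Rarb at -0.0916 for exercise against control. DESeq2 without control library 95 gave Rxra -0.73, -0.31 and -0.45 for the 3 groups against control and Rarb -0.21 for exercise.

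No paired analysis was possible because the groups share no replicate number. Precision is limited by 2 or 3 libraries per group, and for Rxra by the 7 counts of library 95. Reads shared with overlapping genes were not examined, as the counting tool is not known.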
